A study of Mus musculus with 2 samples.

Results

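The cytosolic ribosomal protein genes are the genes that code for the proteins of the cytoplasmic ribosome. They were taken here by symbol, as every gene of the count tables named Rpl or Rps with a number, together with Rpsa, Rplp0, Rplp1 and Rplp2 and without the pseudogene entries. The rule found 84 genes of 31054, 32 of the small subunit and 52 of the large subunit, and 7 of them are -like copies of another member. Their RNA was counted in cells from the gonadal white adipose tissue (gWAT) of 18-month-old male p16-CreERT2/R26-LSL-tdTomato mice, sorted as CD31- CD45- to leave out endothelial cells and leukocytes, and split into 1 tomato-positive (Tom+) and 1 tomato-negative (Tom-) library. Both libraries share genotype, age and tissue, and the study gave its reporter mice tamoxifen before collection. In this model a tamoxifen-dependent Cre under control of p16 removes a stop cassette in front of tdTomato, so Tom+ marks cells in which the Cre was active at the time of tamoxifen and their descendants, not p16 at the time of sorting. How many mice were pooled in a library is not given in the sources used here, and with 1 library per sorted group no difference between Tom+ and Tom- cells has a replicate. The study takes Tom+ and Tom- progenitors as p16 high and p16 low. Here Tom+ was compared with Tom- in stromal and in mesothelial cells, and mesothelial with stromal cells within each library.

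The small subunit of the ribosome decodes the mRNA while the large subunit joins the amino acids and feeds the new chain through its exit tunnel. Their mRNAs are abundant in every growing cell and carry a tract of pyrimidines at the start of the transcript, through which mTOR signaling and the La-related protein Larp1 control how well they are translated. Several members have duties away from the ribosome, such as Rpl5 and Rpl11, which bind 5S rRNA and, when free, the p53 regulator Mdm2.

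The bases around the transcription start are shown for 10 members on which the comparisons turn, because this tract is the regulatory sequence that the family is known for. RefSeq start windows of build GRCm38.p6 were at hand for 64 members. A C at the start followed by at least 4 bases that are each C or T was found in 13 of them (20.3%), against 813 of 27025 genes (3.01%). A run of at least 7 bases that are each C or T, beginning with C and lying within 30 bases of the annotated start on the transcribed strand, was found in 38 members (59.4%) and in 29.7% of all genes. Each line gives 40 bases from 5′ to 3′, with 20 bases before the annotated start and 20 from it on, and the capitals mark the run. The 10 were picked among members whose window holds such a run, so they show its form and not how often it occurs. Rpl5, Rplp2 and Rps6 were among the members higher in Tom+ cells, Rpl28, Rpl22l1 and Rpl18 among those lower in Tom+ stromal cells, Rps21, Rps27 and Rpl4 among those higher in mesothelial cells, and Rps12 was lower there.
Rpl5, chr5:107900508-107900547, plus strand: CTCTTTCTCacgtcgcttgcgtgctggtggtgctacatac
Rplp2, chr7:141447631-141447670, plus strand: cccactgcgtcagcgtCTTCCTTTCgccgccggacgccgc
Rps6, chr4:86857348-86857387, minus strand: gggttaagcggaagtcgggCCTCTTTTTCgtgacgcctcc
Rpl28, chr7:4792945-4792984, plus strand: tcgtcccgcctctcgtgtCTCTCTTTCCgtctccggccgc
Rpl22l1, chr3:28805488-28805527, plus strand: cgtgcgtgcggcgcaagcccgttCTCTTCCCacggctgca
Rpl18, chr7:45718051-45718090, plus strand: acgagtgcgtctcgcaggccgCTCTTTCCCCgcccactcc
Rps21, chr2:180257359-180257398, plus strand: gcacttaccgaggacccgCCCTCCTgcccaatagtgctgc
Rps27, chr3:90213629-90213668, minus strand: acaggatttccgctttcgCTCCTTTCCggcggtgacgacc
Rpl4, chr9:64173367-64173406, plus strand: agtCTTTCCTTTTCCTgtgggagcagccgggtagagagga
Rps12, chr10:23787190-23787229, minus strand: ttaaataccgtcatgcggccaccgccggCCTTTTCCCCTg
Of these, Rplp2, Rps6, Rpl28, Rps21 and Rps27 also had the C at the annotated start followed by at least 4 bases of C or T. In Rpl5 and Rpl4 the run lay before the annotated start and in Rpl22l1, Rpl18 and Rps12 after it.

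Cells with over 1000 and under 7000 genes and under 8% mitochondrial unique molecular identifiers (UMIs, counts of single captured RNA molecules) were kept. Those with at least 10 UMIs of the mesothelial markers Msln, Upk3b, Krt19, Lrrn4 and Upk1b together were taken as mesothelial, the cells that line the fat pad, and those with under 5 as stromal, the class that holds the adipose progenitor cells (APCs). There were 3263 Tom+ and 4800 Tom- stromal cells with median depths of 14235 and 11270 UMIs, and 250 Tom+ and 1887 Tom- mesothelial cells with 18602 and 14753 UMIs. In counts per 1000000 UMIs of a group (CPM), the mesothelial markers summed to 4844 and 4796 in Tom+ and Tom- mesothelial cells and to 6.63 and 27.3 in the stromal cells, and the 8 stromal markers, Dcn and Col3a1 among them, to 29967 and 31304 CPM in the stromal and 13774 and 15419 in the mesothelial cells. Dcn made up most of the stromal marker sums, at 18504 and 22290 CPM in stromal and 9987 and 11318 in mesothelial cells. Of the 8, Cd34 alone was higher in mesothelial cells, at 435 and 417 CPM against 294 and 292. Transcripts of tdTomato stood at 210.8 and 13.1 CPM in Tom+ and Tom- stromal cells and at 780.2 and 8.25 in the mesothelial cells. The stromal class also held cells rich in immunoglobulin RNA in spite of the CD45- gate: all 7 B and plasma cell markers were detected, summing to 59782 CPM in Tom+ and 14456 in Tom- stromal cells, and 145 Tom+ and 67 Tom- cells took at least 1% of their UMIs from immunoglobulin genes. Members took a smaller share of all UMIs in these cells, at a median of 6.05% in Tom+ and 9.75% in Tom- ones. The totals of these cells include their immunoglobulin RNA, which lowers the share of every other gene. Whether the cells held less member RNA apart from it was not tested. The main stromal results are therefore given with these cells and without them, leaving out also cells with at least 3 UMIs of Ptprc, Cd52 and Laptm5, which kept 3057 Tom+ and 4689 Tom- stromal cells. This second set was defined after the data had been seen. The 5 leukocyte markers summed to 382 and 196 CPM in Tom+ and Tom- stromal and to 715 and 505 in the mesothelial cells, the 4 epithelial ones to 12.4 and 6.69 and to 596 and 749, and the 4 endothelial ones to 7.28 and 7.24 and to 133 and 90.4. In mesothelial cells few genes carried most of these sums, so the sums do not give the number of cells of those types. Cd74 stood at 411 and 492 CPM, Lyz2 at 275 and 10.8, Laptm5 at 20.9 and 0.74, Ptprc at 6.39 and 0.49 and Cd52 at 1.88 and 1.21. Laptm5 was detected in 8.8% of Tom+ and 0.64% of Tom- mesothelial cells, Ptprc in 4.4% and 0.48% and Lyz2 in 22.4% and 6.09%. Cells with leukocyte RNA were thus more frequent in the Tom+ mesothelial class. The rule on immunoglobulin and leukocyte markers left out 10 of its 250 cells and 5 of the 1887 Tom- ones. Krt8 stood at 353 and 398 CPM, Krt18 at 240 and 346 and Epcam at 1.69 and 3.83. Kdr stood at 119 and 81.5 CPM, Pecam1 at 13.3 and 8.78 and Cdh5 at 0 and 0.06. The Schwann, erythroid and cycling markers stayed under 8 CPM in every group, with Sox10 at or near 0. The part of any cells of other types in the ratios of the members was not tested. The libraries shared 2224 barcodes of any kind, of which 9 passed the filters in both.

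Ribosomal protein mRNA took about the same share of the RNA in Tom+ and Tom- stromal cells, and a larger one in mesothelial cells. The members held 11.5% of all UMIs in Tom+ stromal cells and 11.8% in Tom- stromal cells, and 13.1% and 12.7% in Tom+ and Tom- mesothelial cells. With the immunoglobulin-rich and leukocyte-marker cells left out, the order in stromal cells turned, and members held 12.2% in Tom+ and 11.8% in Tom-. The totals with all cells include immunoglobulin RNA, which took a larger part of them in Tom+ than in Tom- stromal cells. Barcodes with 1000 genes or fewer, which hold more of the free RNA, gave shares of 11.1% in the Tom+ and 13.9% in the Tom- library. Counting error was under 0.05 percentage points on either side of each of these shares and does not include the variation between mice or libraries. Single cells ranged widely around these values. In Tom+ stromal cells the median share was 11.8% with quartiles of 9.48% and 14.0%, in Tom- stromal cells 11.6% with 9.14% and 14.1%, in Tom+ mesothelial cells 13.2% with 11.9% and 14.5%, and in Tom- mesothelial cells 12.9% with 11.6% and 14.1%. The stromal spread was thus wider than the mesothelial one, with SDs over cells of 3.35 and 3.57 percentage points against 2.12 and 1.94. Across stromal cells without the immunoglobulin-rich ones the share was nearly unrelated to depth, with Spearman's rho of 0.079 over 3057 Tom+ and 0.062 over 4689 Tom- cells. Across 1882 Tom- mesothelial cells it was lower in deeper cells, with rho of -0.21. These are correlations over cells of 1 library each and describe those libraries.

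**Figure D1:**
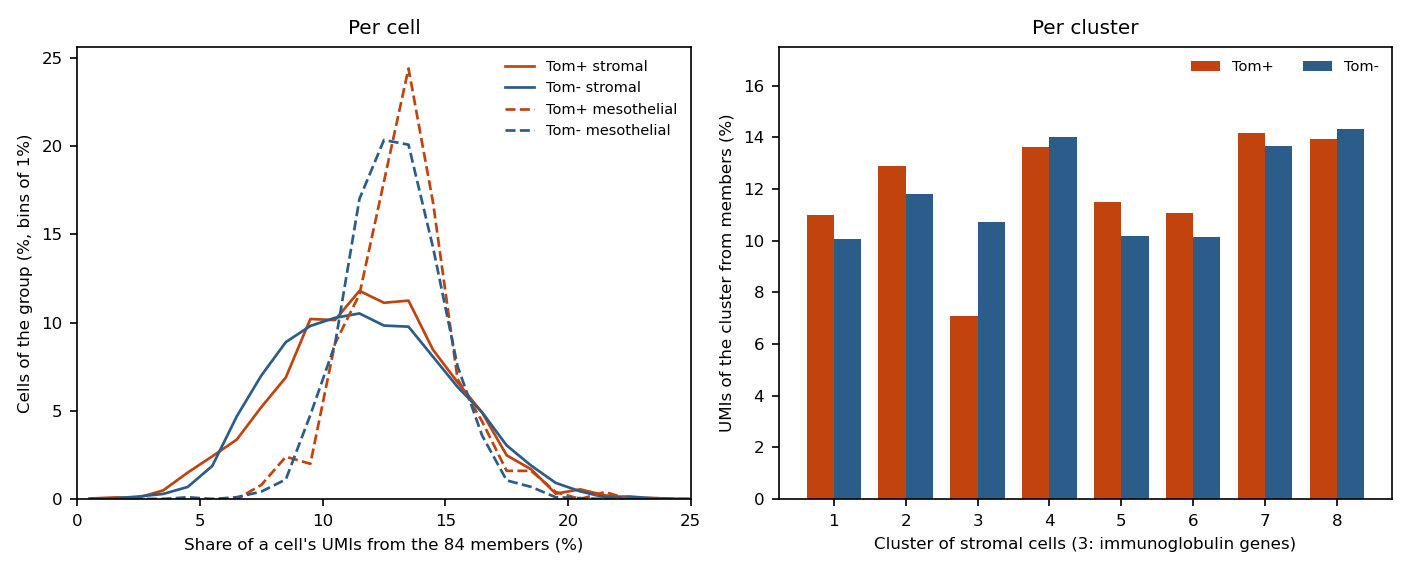
Left, the share of each cell's UMIs that came from the 84 members (x axis, percent), as the percent of cells of the group in bins of 1% (y axis). Stromal cells spread over a wider range than mesothelial cells in both libraries. Right, the share of UMIs from members in 8 clusters of stromal cells by library (percent). Cluster 3, led by immunoglobulin genes, stands at 7.09% in Tom+ and 10.7% in Tom- cells, of totals that include its immunoglobulin RNA.

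In stromal cells the family did not move as 1 block between the sorted populations. Of the 84 genes, 81 reached 5 CPM on average over both libraries and entered. For these the log2 ratio of Tom+ over Tom- was taken, and a gene at 0.35 or more on either side is counted as past the limit. The median ratio was -0.033 for the members and 0.071 for all 9778 genes, with 30 members above 0 and 51 below. Rpl5 alone was past the limit, so 1 member was higher where 14.8% of all genes were, and none was lower where 8.16% of all genes were. With the immunoglobulin-rich and leukocyte-marker cells left out the median of the members turned to 0.031 beside 0.135 for all 9763 genes, 46 members lay above 0, and 3 members, Rpl5 and Rpl23a among them, were past the limit on the higher side, where 21.1% of all genes were, against none on the lower side, where 6.42% were. The members stayed about 0.10 below the median gene in both sets of cells. Genes of at least 200 CPM, closer to the members in level, had medians of -0.082 and -0.013 in these sets of cells, so the members stood below the median of all genes and above that of abundant genes. Relative to total RNA the direction depended on which cells were counted. Immunoglobulin genes took 6.06% of the UMIs of Tom+ and 1.59% of those of Tom- stromal cells, and their RNA is part of the totals. Leaving out the immunoglobulin-rich and leukocyte-marker cells raised the medians of the members and of all genes alike. That turn of sign therefore shows no change of the members against other genes. A stricter rule left out every cell with at least 3 UMIs of immunoglobulin and B cell genes or of Calca and Ncam1. Igkc was detected in 99.5% of Tom+ and 82.0% of Tom- stromal cells, so this rule did not single out cells of other types. It removed 3171 of the 3263 Tom+ and 2251 of the 4800 Tom- stromal cells. In the few Tom+ cells and the Tom- cells that remained, the median of the members was 0.173 with 70 members above 0, and 0.105 above that of all genes. Fewer cells of a type and less of this RNA per cell cannot be told apart in such sums.

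In mesothelial cells the median was 0.032 for the members and for all 10014 genes alike, turning to -0.007 with size factors in place of CPM, and 46 members lay above 0. Rps6 alone was past the limit there on the higher side, where 7.34% of all genes were, and no member on the lower side, where 4.27% were. Of genes of at least 200 CPM, closer to the members in level, 0.95% were past it on the higher and 2.71% on the lower side. The 1.23% of members on the higher side was near that share.

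Several members were higher in Tom+ cells in both cell classes. Rpl5, the 5S rRNA-binding protein named above, was counted at 951 and 744 CPM in Tom+ and Tom- stromal cells, and at 1133 and 925 CPM in the mesothelial cells. It was the highest of the family in stromal cells, at a log2 ratio of 0.35 (95% counting interval 0.34 to 0.37) there and of 0.29 (0.25 to 0.33) in mesothelial cells, and at 0.43 in stromal cells without the immunoglobulin-rich and leukocyte-marker cells. Its partner Rpl11 stood at 1197 and 1245 CPM in Tom+ and Tom- stromal cells and at 1370.3 and 1377 CPM in mesothelial cells, which are ratios of -0.06 and -0.01. The proteins of both genes enter the ribosome as 1 complex, yet only the mRNA of Rpl5 was higher in Tom+ cells, while that of Rpl11 was close to even and changed sign between sets of cells.

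Among the small subunit members, Rps14, a protein of the platform of the subunit, stood at 1326 and 1107 CPM in Tom+ and Tom- stromal cells and at 1618 and 1359 CPM in the mesothelial cells. Rps6, the substrate of S6 kinase in mTOR signaling, stood at 655 and 569.6 CPM in stromal cells and at 909 and 709 CPM in mesothelial cells, which gave it the largest ratio of the family in mesothelial cells, 0.36 (0.31 to 0.40), and 0.20 in stromal cells. Each of these genes was higher in the Tom+ library in both classes. On the other side, Rpsa, also known as the laminin receptor, stood at 1798 and 2016 CPM in Tom+ and Tom- stromal cells and at 2083 and 2237 CPM in mesothelial cells, ratios of -0.17 and -0.10. The X-linked Rps4x stood at 2422 and 2701 CPM in stromal and at 2378 and 2615 CPM in mesothelial cells, and its mesothelial ratio of -0.14 was the lowest of the family. Both Tom+ values lay below the Tom- value of the same class for these genes, but in the few stromal cells left by the stricter rule above Rpsa stood at 0.04 and Rps4x at 0.26, and within the clusters of stromal cells described further on both were of either sign. Rps16 was lower in Tom+ stromal cells at -0.17, stood at -0.01 in mesothelial cells, and was of either sign within the 7 clusters, with a mean of -0.02. Rps27a, which is made as a fusion with ubiquitin, was at -0.09 and -0.02. Of the 32 small subunit members 14 lay above 0 in stromal and 19 in mesothelial cells, with medians of -0.016 and 0.052. Without the immunoglobulin-rich and leukocyte-marker cells the stromal count was 19 and the median 0.050.

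Of the 49 large subunit members, 16 lay above 0 in stromal and 27 in mesothelial cells, with medians of -0.056 and 0.021. In stromal cells without the immunoglobulin-rich and leukocyte-marker ones 27 lay above 0, with a median of 0.023. Rpl23a, which sits at the exit of the peptide tunnel, stood at 738 and 612 CPM in Tom+ and Tom- stromal cells and at 840.3 and 681 CPM in mesothelial cells, ratios of 0.27 and 0.30. Rpl4, which lines the tunnel, was nearly even in stromal cells at 525 and 497 CPM and stood at 760 and 618 CPM in mesothelial cells, so that its mesothelial ratio of 0.30 exceeded its stromal one of 0.08 by 0.22, the widest such gap among the 81 members. Without the immunoglobulin-rich and leukocyte-marker cells they stood at 0.32 and 0.16. The lowest ratios in stromal cells were those of Rpl22l1, the copy of Rpl22, at 571 and 677 CPM (-0.25), and of Rpl21 at 1673 and 1973 CPM (-0.24), followed by Rplp0, Rpl9 and Rpl28. Both were closer to even in mesothelial cells, at -0.09 and -0.06. In the stromal cells without the immunoglobulin-rich and leukocyte-marker ones the same genes stood at -0.16 and -0.17, and in the few left by the stricter rule Rpl22l1 stood at 0.24. Within the 7 clusters of stromal cells described further on Rpl22l1 was closer to even, with a mean of -0.06 and a range from -0.19 to 0.05.

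The 3 proteins of the stalk, to which the elongation factors bind, differed among themselves. Rplp0, its base, stood at 1686 and 1921 CPM in Tom+ and Tom- stromal cells and at 2001 and 2110 CPM in mesothelial cells, ratios of -0.19 and -0.08. Rplp1 stood at 2814 and 2803 CPM and at 3688 and 3329 CPM, ratios of 0.01 and 0.15. Rplp2 stood at 1167 and 997 CPM and at 1453 and 1224 CPM, ratios of 0.23 and 0.25. The base was lower and Rplp2 higher in Tom+ cells of both classes, while Rplp1 was even in all stromal cells together. Without the immunoglobulin-rich and leukocyte-marker cells Rplp0, Rplp1 and Rplp2 stood at -0.12, 0.07 and 0.31 in stromal cells. Within the 7 clusters described further on Rplp1 was higher in Tom+ in 6, with a mean of 0.14, and Rplp0 was of either sign. Rplp1 and Rplp2 share 66.9% and 80.1% of the 50-base stretches in the last 300 bases of their transcript with another counted gene, so reads may be split between genes there, and Rplp0 shares none.

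Across the 81 members the ratios in both classes ran together, with Pearson's r of 0.91 and Spearman's rho of 0.87. Both were higher in 30 members, both lower in 35, and 16 were of opposite sign. Over 637 other genes of at least 200 CPM the same r was 0.495. Both ratios come from the same pair of libraries, so that anything by which the libraries differed in preparation, free RNA or sequencing enters both, and the points share their depth. Without the immunoglobulin-rich and leukocyte-marker cells r was 0.90, with 43 members higher in both.

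**Figure D2:**
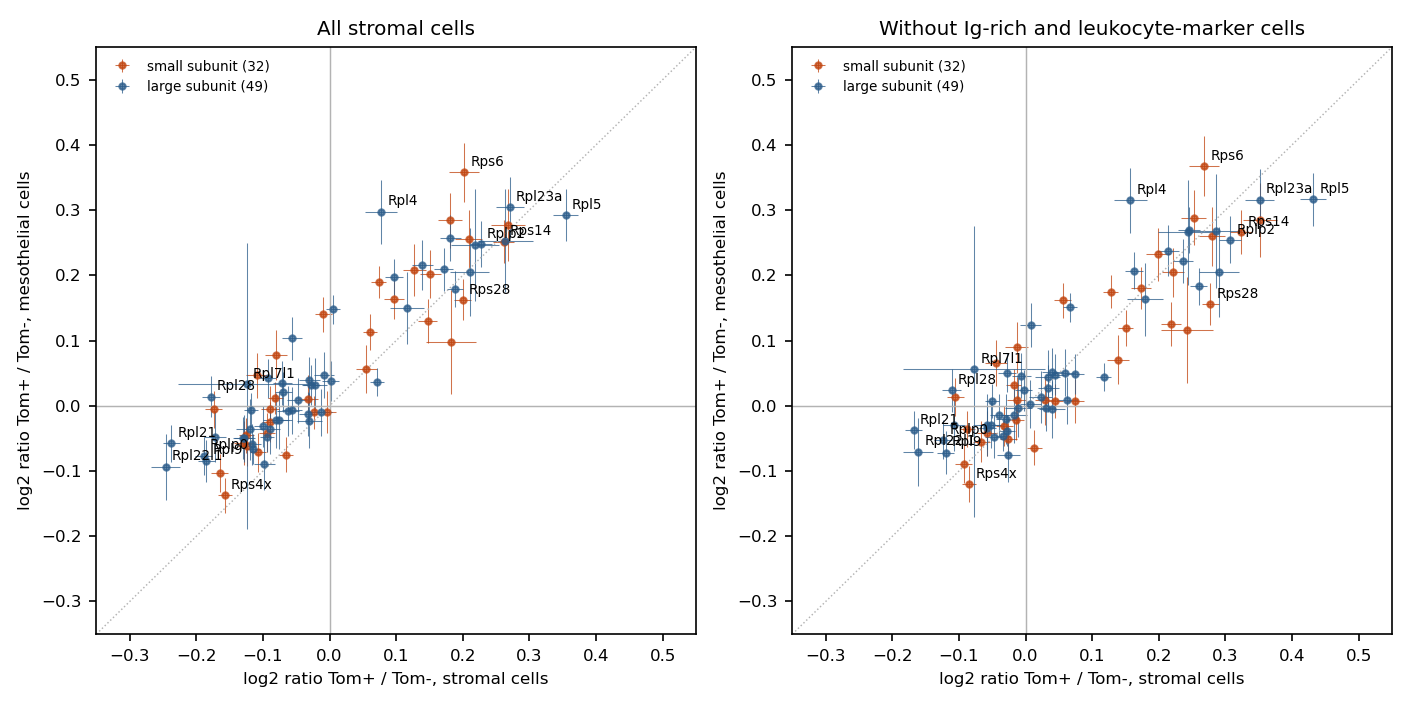
Log2 ratio of Tom+ over Tom- for 81 members in stromal cells (x axis) and in mesothelial cells (y axis), for all cells (left) and without immunoglobulin-rich and leukocyte-marker cells (right). Bars are 95% intervals for counting error only, the dotted line marks equal ratios, and colors give the subunit. Rpl5, Rpl23a and Rps6 lie at the upper right and Rpl22l1, Rpl21 and Rps4x at the lower left.

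Several of the members higher in Tom+ cells were also higher within groups of like stromal cells. The stromal cells were clustered without the member genes into 8 clusters, numbered by falling share of Tom+ cells from 74.8% in cluster 1 to 14.2% in cluster 8, and within a cluster both libraries were compared again. Leaving out cluster 3, which was led by Ighm, Igkc and Igha and held 180 Tom+ and 92 Tom- cells, 28 of the 81 members were higher in Tom+ in all 7 clusters, where 16.6% of all 9583 genes were. Rpl7l1, counted at only 21.3 to 34.3 CPM in these clusters, was lower in all 7, where 5.92% of all genes were. Rpl5 was highest of the members in the mean over clusters, at 0.41, and ran from 0.30 in cluster 4 to 0.58 in cluster 5. Rpl23a ran from 0.25 to 0.42, Rps14 from 0.16 to 0.44 and Rplp2 from 0.15 to 0.44. Members such as Rpl21 and Rplp0 were near or below even, from -0.29 to 0.02 and from -0.29 to 0.06. The median of the members within a cluster was above that of all genes in clusters 1, 2, 5 and 6, at 0.108, 0.109, 0.148 and 0.125 against 0.066, 0.061, 0.048 and 0.075. It was below in clusters 4, 7 and 8, at -0.068, 0.027 and -0.035 against 0.088, 0.082 and 0.069. In cluster 3 all 81 members were lower in Tom+ cells, with a median of -0.60, where the median of all genes was -0.248. Igkc alone stood at 346811 CPM in cluster 3, and its RNA is part of the totals. Lower ratios there therefore need not mean less member RNA. The clusters thus differed in the direction of the family as a whole while Rpl5, Rpl23a, Rps14 and Rplp2 were higher in Tom+ in each of the 7. All 7 ratios of a gene come from the same pair of libraries, so anything by which the libraries differed enters each of them. The clusters are therefore not replicates, and cluster 8 held only 36 Tom+ cells.

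**Figure D3:**
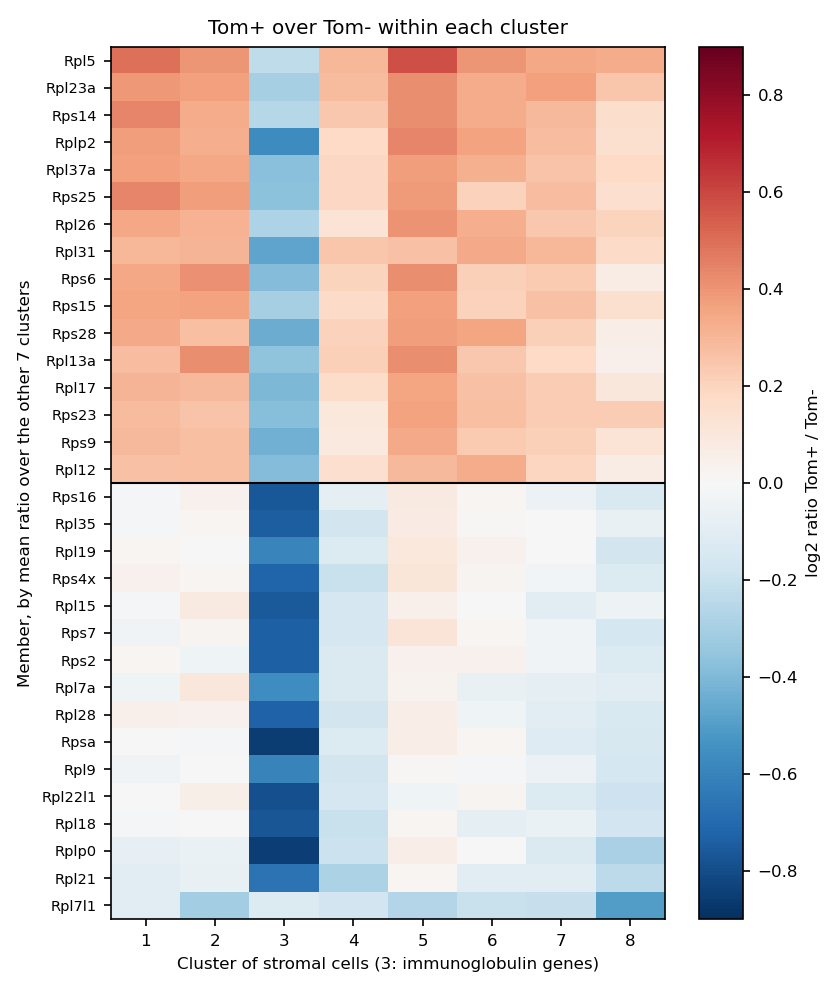
Log2 ratio of Tom+ over Tom- within each of 8 clusters of stromal cells (columns) for 16 of the members with the highest and 16 of those with the lowest mean over the 7 clusters other than cluster 3 (rows), from -0.9 (blue) to 0.9 (red). The upper 16 are red in all 7 of those clusters and cluster 3 is blue throughout.

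The share of RNA in members differed more between clusters than between libraries. It was 13.8% of UMIs in cluster 4, led by Krtdap, Efhd1 and Dact2 and high in the progenitor genes Pi16 and Dpp4 (850.4 and 228 CPM), 13.8% in cluster 7, led by Mfap4, Cpxm2 and Il6, and 14.3% in cluster 8, led by Ccl21a, Calca and Ncam1. It was 10.8%, 10.6% and 10.4% in clusters 1, 5 and 6, led by Scg3, by Psat1 and by Vdr, where the adipocyte lineage factor Pparg stood at 33.3, 33.7 and 28.2 CPM against 6.87 and 6.68 CPM in clusters 4 and 7. Cluster 2, led by Pi15, held 12.6%. The shares of clusters 4, 7 and 8 lay above the 13.1% and 12.7% of Tom+ and Tom- mesothelial cells. Members varied less over the 7 clusters than other abundant genes: their SD of log2 CPM had a median of 0.21, beside 0.32 for the 627 other genes of at least 200 CPM. The clusters were built from other genes with the members left out, which favours a smaller spread of the members. This contrast is therefore no finding about the family. Over all 8 clusters the widest spread was that of Rpl22l1, Rps12, Rpl36al, Rpl21, Rpl7 and Rpl23a, with SDs of 0.49 to 0.37. This order rested on cluster 3: over the 7 others Rpl22l1, Rps12 and Rpl36al had SDs of 0.24, 0.21 and 0.20, and Rpl23 the widest, 0.28, from 2071 CPM in cluster 5 to 3173 CPM in cluster 7. Levels in cluster 3 are parts of a total that includes its immunoglobulin RNA. Rpl22l1 ran from 288.8 CPM in cluster 3 to 858 CPM in cluster 8, and Rps12 from 1310.1 CPM in cluster 3 to 3275 CPM in cluster 4. Rpl36al went the other way, with its highest level, 334 CPM, in the immunoglobulin cluster and its lowest, 132 CPM, in cluster 6.

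Mesothelial cells held more RNA of most members than stromal cells in both libraries, though with size factors in place of CPM the median ratio in the Tom- library was only 0.019. In the Tom- library 60 of the 81 members lay above 0, with a median log2 ratio of 0.108 beside 0.138 for all 10019 genes, and in the Tom+ library 70, with 0.187 beside 0.112 for 10240 genes. Past the limit on the higher side were 5 members in the Tom- library, where 32.8% of all genes were, and 14 in the Tom+ library, where 33.7% were. None was past it on the lower side, where 19.7% and 23.6% of all genes were. Without the immunoglobulin-rich and leukocyte-marker cells the medians were 0.100 and 0.114, and 5 and 11 members were past the limit, beside 32.3% and 29.4% of all genes on the higher side and none beside 20.2% and 28.5% on the lower side. The large subunit stood above the small in both libraries, with medians of 0.146 against 0.079 in the Tom- library and of 0.218 against 0.147 in the Tom+ library. Within the family the genes kept nearly the same order in both libraries, with Pearson's r of 0.94 over 81 members and of 0.98 over 637 other genes of at least 200 CPM.

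Rpl36al, a retrogene copy of Rpl36a, was the highest of the family in both libraries. It stood at 292 and 244.8 CPM in Tom+ and Tom- mesothelial cells and at 191 and 159 CPM in Tom+ and Tom- stromal cells, ratios of mesothelial over stromal of 0.61 (0.53 to 0.69) and 0.62 (0.58 to 0.67). Rpl41, one of the smallest proteins known and a bridge between the subunits, stood at 3875 and 3779 CPM in mesothelial and at 2842 and 2706 CPM in stromal cells. Both were higher in mesothelial cells of either library. Rpl23, another binding partner of Mdm2, stood at 3171 and 3277 CPM against 2302 and 2457 CPM, ratios of 0.46 and 0.42. Rps21, a small protein of the small subunit, stood at 3001 and 2976 CPM against 2163 and 2288 CPM. For each of these genes both mesothelial values lay above both stromal ones. Over the 7 stromal clusters other than cluster 3, Rpl36al, Rpl41 and Rps21 reached at most 199, 3549 and 2837 CPM, below both mesothelial values. Rpl23 reached 3173 CPM in cluster 7, level with its Tom+ mesothelial value. Rpl4, at ratios of 0.53 and 0.31, Rps6, at 0.47 and 0.32, and Rps27, at 0.47 and 0.32, were higher in the Tom+ than in the Tom- library. Without the immunoglobulin-rich and leukocyte-marker cells they stood at 0.46 and 0.30, 0.42 and 0.32, and 0.42 and 0.31. Rpl36al stood at 0.74 and 0.72 in that set of cells.

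A few members were lower in mesothelial cells. Rps12 stood at 2336 and 2160.4 CPM in Tom+ and Tom- mesothelial cells and at 2647 and 2538 CPM in stromal cells, ratios of -0.18 and -0.23. Rps28 stood at 1826 and 1632 CPM against 2139 and 1863 CPM, ratios of -0.23 and -0.19, and Rps2, which lies near the entry of the mRNA channel, at 1879 and 1974 CPM against 2035 and 2193 CPM. Of Rps12 and Rps2 both mesothelial values lay below both stromal ones, and of Rps28 the Tom+ mesothelial and the Tom- stromal values were close. This did not hold against each stromal cluster. In cluster 6, both libraries together, Rps12, Rps28 and Rps2 stood at 2297, 1686 and 1956 CPM, below the higher mesothelial value of each. Rpl9 and Rpl13 were lower in the Tom- library at -0.12 and -0.11 and near even in the Tom+ library. Without the immunoglobulin-rich and leukocyte-marker cells they were lower in the Tom+ library too, at -0.09 and -0.06. In that set of cells Rps12 stood at -0.28 and Rps28 at -0.32 in the Tom+ library. All stretches of the last 300 bases of Rps12 and of Rps27 occur in another counted gene, as do 62.9% of those of Rpl36al and of Rpl41, and these levels are therefore uncertain.

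**Figure D4:**
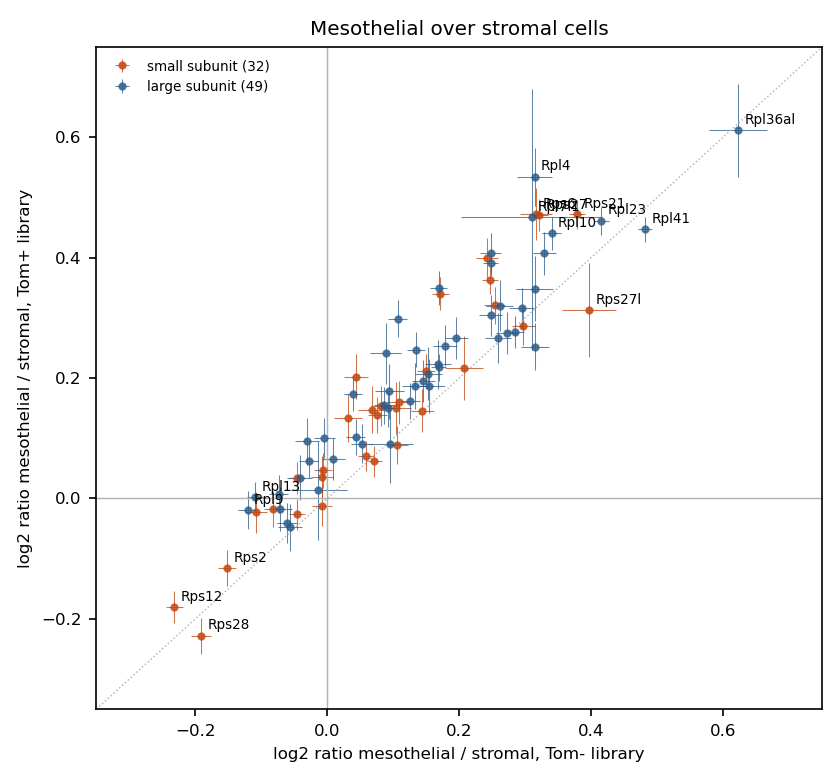
Log2 ratio of mesothelial over stromal cells for 81 members in the Tom- library (x axis) and the Tom+ library (y axis). Bars are 95% intervals for counting error only and the dotted line marks equal ratios. Rpl36al lies at the far upper right, and Rps12, Rps28 and Rps2 at the lower left.

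Rpl22l1, Rpl36al and, in stromal cells, Rps27l differed from the members they are named after in ratios taken over a whole cell class. Rpl22l1, whose RNA is repressed by the protein of Rpl22, was the lowest member in Tom+ stromal cells at -0.25 while Rpl22 stood at 778 and 822 CPM, a ratio of -0.08. They stood at -0.16 and -0.02 without the immunoglobulin-rich and leukocyte-marker cells. Rpl36al was higher in Tom+ cells at 0.26 in stromal and 0.25 in mesothelial cells while Rpl36a stood at -0.03 and -0.02. Rps27l, a target of p53, stood at 226 and 199.5 CPM in Tom+ and Tom- stromal cells and at 281 and 263 CPM in mesothelial cells, ratios of 0.18 and 0.10, while its parent Rps27 stood at -0.01 and 0.14. Rpl7l1, a nucleolar relative of Rpl7, was counted at 27.5 and 29.9 CPM in stromal and at 37.9 and 37.1 CPM in mesothelial cells. Its ratios of Tom+ over Tom- were -0.12 (-0.23 to -0.02) and 0.03 (-0.19 to 0.25), so the mesothelial one was not resolved at this depth. Rpl7 stood at -0.05 and 0.01, values inside those intervals. Without the immunoglobulin-rich and leukocyte-marker cells the stromal ratio of Rpl7l1 was -0.08 (-0.18 to 0.03), so it was not resolved there either. The copies Rpl3l, a striated muscle form, Rpl10l and Rpl39l, testis forms, were next to absent, with 4, 3 and 9 UMIs over all 4 groups of cells, so no ratio is given, while their parents Rpl3, Rpl10 and Rpl39 were counted at 1154 to 3426 CPM.

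Among ribosomal proteins of the cytosol that carry other names, Fau, the source of Rps30, was near even at -0.07 and 0.03, and the scaffold Rack1 was higher in Tom+ at 0.18 and 0.24.

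The other genes of protein synthesis were followed in lists of factors, to be read against the 14.8% of all genes that were past the limit on the higher and the 8.16% on the lower side. The shares of initiation and biogenesis factors were below these on both sides. In Tom+ over Tom- stromal cells 2 of 39 initiation factors were past the limit on the higher side and 3 on the lower side, with a median of -0.017. Lower were the cap-binding Eif4e at 125 and 184 CPM (-0.57), the helicase Eif4a1 (-0.47) and Eif1 (-0.42), and higher the inhibitors of Eif4e, Eif4ebp1 at 59.8 and 44.5 CPM (0.42) and Eif4ebp2 (0.37). None of the 9 elongation factors was past it on the higher side and 1 on the lower, Eif5a (-0.58). Of 73 ribosome biogenesis factors 1 was higher and 4 were lower, among them the snoRNP proteins Nop58 (-0.72) and Fbl (-0.47), and the median was -0.060. Myc, a driver of ribosome synthesis, stood at 166 and 329 CPM in stromal and at 364 and 482 CPM in mesothelial cells, ratios of -0.98 and -0.41. It was 1 of 2 genes on the lower side, with Rheb (-0.42), among 14 regulators of the translation of these mRNAs, whose median was 0.191 with 10 above 0. The 4 on the higher side were Larp4b (0.54), Rptor (0.53), Tsc1 (0.52) and Rps6kb2 (0.40), the last of them named after its value was seen. In the same contrast 21 of 25 dissociation and immediate early genes were lower in Tom+ cells, with a median of -0.23, and 9 were past the limit, among them Socs3, Ier5 and Ier3. The part of that list in the ratios of the members was not tested. The 75 mitochondrial ribosomal proteins had a median of 0.017 with 1 on the higher side, the 13 mitochondrially encoded genes one of 0.128 with 1 on the higher side, and the 3 snoRNA host genes one of -0.122 with none past the limit. Without the immunoglobulin-rich and leukocyte-marker cells, where the median of all genes was 0.135, the medians were 0.029 for initiation, 0.060 for elongation and 0.018 for biogenesis factors, 0.085 for mitochondrial ribosomal proteins with 4 on the higher side, 0.263 for the regulators, -0.158 for the dissociation genes and -0.036 for the snoRNA hosts.

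In mesothelial over stromal cells 4 of these lists stood above the members, whose medians were 0.108 and 0.187, and above all genes, at 0.138 and 0.112. The 76 mitochondrial ribosomal proteins, which build the separate ribosome of the mitochondria, had a median ratio of 0.390 in the Tom- library with 45 past the limit on the higher side and none on the lower. In the Tom+ library 75 of them entered, with 0.374, and again 45 and none. Initiation factors had medians of 0.296 and 0.382, with 17 and 21 higher and 1 lower in each library, where 32.8% and 33.7% of all genes were higher and 19.7% and 23.6% lower, elongation factors of 0.295 and 0.346, and biogenesis factors of 0.202 and 0.271. The median of the members was below each of these in both libraries. Below the members in both libraries were the mitochondrially encoded genes, with medians of -0.226 and -0.301, the regulators, with -0.036 and -0.192, the snoRNA host genes, with -0.094 and -0.038, and the dissociation and immediate early genes, with -0.122 and 0.051.

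**Figure D5:**
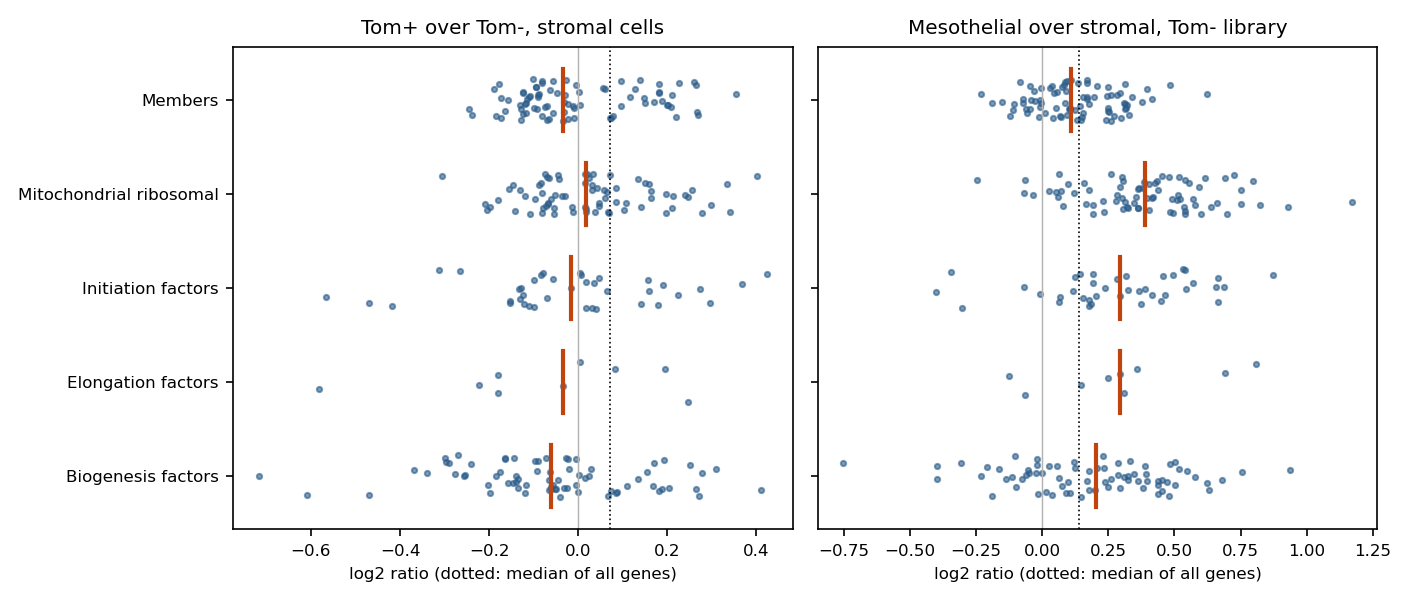
Log2 ratios (x axis) of the members and of 4 lists of translation genes (rows) for Tom+ over Tom- in stromal cells (left) and mesothelial over stromal cells in the Tom- library (right). Points are genes of at least 5 CPM, red bars the medians of the lists, and the dotted line the median of all genes. On the left the medians of the 5 rows lie between -0.060 and 0.017, and on the right the mitochondrial ribosomal proteins have the highest median, 0.390.

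Features of the transcripts were set beside the mean ratio of Tom+ over Tom- within the 7 clusters, over 81 members. Spearman's rho was -0.36 with transcript length, -0.28 with the level, -0.05 with the GC content of the last 300 bases, and -0.02 with the share of 50-base stretches found in any other annotated gene. The 28 members higher in all 7 clusters had a median transcript of 569 bases and the others one of 780. These correlations run across genes, which are not independent replicates. In all, 15 members share over 50% of those stretches with another counted gene and 60 of the 81 in the comparisons share none.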

How the data were processed

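RNA of single CD31- CD45- gWAT cells was counted in 1 Tom+ and 1 Tom- 10x 3′ library. The authors deposited raw counts of UMIs per gene and barcode, made with Cell Ranger 3.0.2 on mm10 per the submitters' processing notes, with no normalization. The study's methods name limits of 1000 and 7000 genes per cell. Cells between these limits with under 8% mitochondrial UMIs were kept, and UMIs were summed per library and class and scaled to CPM. Cells are not replicates and each condition is 1 library, so no test was run and no p-value is given. Intervals of a ratio are exact conditional (Clopper-Pearson) 95% intervals, which cover counting error only. No doublet caller was run, and doublets may remain. Because 3′ UMIs are not scaled per length, levels were not compared between genes. Genes that averaged 5 CPM or more over both groups entered a comparison, and a log2 ratio of at least 0.35 counted as past the limit. The genes named were the 6 highest and 6 lowest members of each comparison, the 6 that varied most over clusters, paralog pairs, the stalk, Rpsa, Rps6, Rps27a, Rpl5 and Rpl11, Fau and Rack1, and the 3 highest and 3 lowest of each list, of which some are printed. A few genes that this rule names are not reported here. The members and all lists were chosen with earlier results of these data known. The other settings, 9 in number, changed scaling, denominator, mitochondrial limit, weighting, filter, class limits, cells of other types and depth, and 2 more settings were chosen after seeing the data: leaving out immunoglobulin-rich and leukocyte-marker cells, and leaving out members with shared 3′ sequence. Cluster genes such as Pi16 and Pparg were also chosen after their values were seen. Clustering used the 2000 most variable non-member genes, 30 components, 20 neighbours and a resolution of 0.5. Start sequences came from RefSeq (GRCm38.p6). Only the log2 ratios and their intervals were tested on simulated counts, which held counting error alone. Scripts ran in Python 3.11.15 with scanpy 1.11.5, igraph 0.11.9, scipy 1.17.1, pandas 2.3.3, numpy 2.4.6 and matplotlib 3.10.9.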

Additional observations from a re-analysis of the deposited data

Results flagged for a closer look

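Taken as Tom+ over Tom-, the median log2 ratio of the 81 members had opposite signs in the cell classes, -0.033 in stromal and 0.032 in mesothelial cells. With 1 library per group the difference was not tested. Without the immunoglobulin-rich and leukocyte-marker cells both medians were above 0, at 0.031 and 0.044. Leaving these cells out also raised the stromal median of all genes, from 0.071 to 0.135.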

How the results depend on the processing

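The sign of the family's median in the comparison Tom+ over Tom-, stromal cells, which was -0.033, depended on which cells, and of which depth, were counted. Size factors from median ratios gave -0.113, and the median was -0.052 with under 5% mitochondrial UMIs, -0.013 with each cell weighted equally, 5.97e-05 with cells thinned to 7500 UMIs, 0.010 in cells of 8000 to 20000 UMIs, 0.173 without cells of other types, 0.031 without immunoglobulin-rich and leukocyte-marker cells and -0.057 for the 30 members with at most 50% of their 3′ sequence shared with any other annotated gene, counted or not. The setting without cells of other types is the stricter rule above, which removed 3171 of 3263 Tom+ stromal cells and did not single out other types. Under it 7 members were past the limit on the higher side. The median of the members minus that of all genes stood at 0.105 under this rule. Under the other settings it ran from -0.128 to -0.104.
The mesothelial over stromal median in the Tom- library, 0.108, was 0.019 with size factors, 0.138 in cells of 8000 to 20000 UMIs, 0.135 thinned and 0.157 for the 30 members. In the Tom+ library, 0.187 became 0.139 with size factors and 0.114 without immunoglobulin-rich and leukocyte-marker cells. Members past the limit on the higher side ran from 2 to 8 in the Tom- and from 7 to 18 in the Tom+ library, and from 0 to 7 in Tom+ over Tom- stromal cells. The main shares of all genes past it were 32.8%, 33.7% and 14.8%. Without the immunoglobulin-rich and leukocyte-marker cells they were 32.3%, 29.4% and 21.1%. The shares under the other settings are not given here, so these ranges do not set the members against all genes. Of 1037 values of single genes under the alternatives 998 kept their sign, and so did all 141 of genes past the limit. The genes behind the 141 were past the limit in these same data. Only a shift larger than the limit could turn them, so this count is no support. The total of 1037 includes a setting that could not change a sign: no filter on low counts reuses the main ratios, with 109 of 109 kept. The other denominator and the size factors shift all genes of a comparison by the same amount, and kept 108 and 105 of 109. The stricter rule kept 43 of 56, and leaving out the immunoglobulin-rich and leukocyte-marker cells kept 102 of 109. The stricter rule removed all 250 Tom+ mesothelial cells, 100% of which held Igkc RNA, so it gave no value for the comparisons that use them. No replicate could be left out, since each group is 1 library. No paired analysis was possible because each condition has 1 library. Counting error is small at this depth and the variation between mice and libraries is not known.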
